A study of Mus musculus with 16 samples.

Results

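The prostanoid synthesis enzymes were followed here as 9 genes, chosen by symbol from the 39179 genes counted in each sample: Pla2g4a, Ptgs1, Ptgs2, Ptgds, Hpgds, Ptges, Ptges2, Tbxas1 and Hpgd. The cells were bone marrow derived mast cells (BMMCs), mast cells grown from femur and tibia marrow of male C57BL/6 mice aged 8 to 10 weeks over 4 weeks with stem cell factor and IL3. PEP+/+ mice are wild-type and PEP-/- mice lack PEST-domain-enriched tyrosine phosphatase (PEP), the product of Ptpn22, in every cell. All cells were sensitized with IgE for 3 h at 0.05 µg/ml as the labels give it, and the study's methods state a higher concentration. The 4 treatments were IgE alone, IgE DNP (the antigen dinitrophenol at 200 ng/ml for 1 h), IgE DEX (the glucocorticoid dexamethasone at 100 nM for 8 h) and IgE DNP DEX (both agents), so the DNP and DEX groups carry IgE as their controls do. Each of the 8 combinations of genotype and treatment had 2 samples, a numbered and a lettered one in the labels, which are described as biological replicates without saying whether they came from separate mice. All p-values therefore measure the spread between these samples.

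Of the 9 genes, 8 passed the filter on low counts and were tested among 13305 genes, and Ptges did not. Ptgds and Hpgd passed only through the samples with DEX, so that they had to differ between samples with and without it, and their counts are given as descriptions of those samples. Ptgs2 had 1 to 8 reads in the IgE samples and passed through its samples with DNP or DEX, which held at least 25 reads each. Libraries held 8612531 to 22143526 reads on genes (median 12814043.5). All 9 of 9 mast cell markers, among them Kit and Fcer1a, averaged at least 1 CPM (counts scaled to the TMM-normalized library size) in every treatment. Ptpn22 had 130 to 2799 reads in the PEP+/+ samples and 0 to 55 in the PEP-/- samples. The glucocorticoid target Tsc22d3 lay at 725 to 1277 CPM with DEX and at 43.9 to 134.5 CPM without, and Tnf at 17.8 to 464 CPM with DNP and 0.566 to 2.02 CPM without. The summed level of 6 macrophage and monocyte markers moved with the treatments, from 6.59 to 10.9 CPM after IgE to 18.2 to 26.6 after IgE DNP, 15.97 to 20.2 with DEX alone and 27.5 to 32.6 with both agents. Most of this sum was Clec4n, Csf1r had at most 11 reads and Mrc1 at most 1 read in a library, and the part of such cells in the results below was not tested. Markers of neutrophils, stroma, and T and B cells summed to at most 0.605 CPM. Erythroid markers, mostly Hba-a1, summed to 0.110 to 0.72 CPM without DEX, 0.407 to 5.15 with DEX alone and 1.998 to 6.38 with both agents, and their part was not tested. The 3 basophil markers also moved, from 538.9 to 622.6 CPM after IgE to 749.9 to 882 with DNP, 228 to 392.5 with DEX and 431 to 479 with both. Most of this sum was Cd200r3, which averaged 476.9 CPM over all samples, against 28.1 for Mcpt8 and 24.7 for Prss34. The part of basophils was not tested either. Of the megakaryocyte markers Itga2b lay at 1939 to 3919 CPM, with Pf4 at 3 reads or fewer and Ppbp at 0. In bulk samples, fewer cells of a type and less RNA per cell cannot be told apart.

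Prostanoids are short-lived lipid signals made from arachidonic acid. Cytosolic phospholipase A2, encoded by Pla2g4a, releases arachidonic acid from membrane phospholipids, and the cyclooxygenases COX-1 (Ptgs1) and COX-2 (Ptgs2) convert it to prostaglandin H2. Terminal synthases turn prostaglandin H2 into the active prostanoids: prostaglandin D2 by hematopoietic (Hpgds) or lipocalin-type (Ptgds) prostaglandin D synthase, prostaglandin E2 by the membrane synthases Ptges and Ptges2, and thromboxane A2 by Tbxas1. Hpgd encodes 15-hydroxyprostaglandin dehydrogenase, which inactivates prostaglandins. Mast cells are known for their prostaglandin D2, and COX-2 is known as the cyclooxygenase induced on activation and repressed by glucocorticoids in many cell types.

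The genes lie on 4 chromosomes of GRCm38, with Ptgs1, Ptgds, Ptges and Ptges2 on chromosome 2 and Pla2g4a and Ptgs2 on chromosome 1, where Ptgs2 (150100031 to 150108227, plus strand) follows Pla2g4a (149829618 to 149961290, minus strand). RefSeq promoters on GRCm38.p6 (250 bases before to 50 after the start) were found for all 9 genes, with a second start for Pla2g4a. The 250 bases before the start are shown for the 2 genes whose reads were nearly absent without DEX, Ptgds and Hpgd, and for both cyclooxygenase genes. They read 5′ to 3′ along each gene, and capitals mark matches to the short motifs named below on either strand.
Ptgds, chr2:25469750-25469999, minus strand: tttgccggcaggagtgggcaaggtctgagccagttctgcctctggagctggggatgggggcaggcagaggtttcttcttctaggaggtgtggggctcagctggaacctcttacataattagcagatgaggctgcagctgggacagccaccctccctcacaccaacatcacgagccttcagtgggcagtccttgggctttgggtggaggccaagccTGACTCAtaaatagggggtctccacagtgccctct
Hpgd, chr8:56294302-56294551, plus strand: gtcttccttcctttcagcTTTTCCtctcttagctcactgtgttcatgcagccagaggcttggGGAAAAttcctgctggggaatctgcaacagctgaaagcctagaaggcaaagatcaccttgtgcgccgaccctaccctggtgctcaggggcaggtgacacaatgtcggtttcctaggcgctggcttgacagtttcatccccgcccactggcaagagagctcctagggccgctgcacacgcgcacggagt
Ptgs1, chr2:36230176-36230425, plus strand: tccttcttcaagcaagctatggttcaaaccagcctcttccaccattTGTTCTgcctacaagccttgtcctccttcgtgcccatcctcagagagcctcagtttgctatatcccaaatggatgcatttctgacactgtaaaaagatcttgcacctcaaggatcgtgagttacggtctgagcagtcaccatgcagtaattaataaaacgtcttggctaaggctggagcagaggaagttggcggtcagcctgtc
Ptgs2, chr1:150099781-150100030, plus strand: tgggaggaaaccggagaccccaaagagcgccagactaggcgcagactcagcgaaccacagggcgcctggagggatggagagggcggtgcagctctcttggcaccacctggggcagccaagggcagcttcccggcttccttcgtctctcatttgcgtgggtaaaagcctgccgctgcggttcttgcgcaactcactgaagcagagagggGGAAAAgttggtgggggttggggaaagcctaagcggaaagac
The full glucocorticoid receptor element (AGAACA, any 3 bases, TGTTCT) was in none of the 9 genes' windows and in 0.00913% of 32851 promoters of the same length. Its left arm AGAACA was in the windows of 3 genes (Ptgs1, Ptges and the second start of Pla2g4a) and in 19.0% of all promoters. The AP-1 motif TGANTCA was in those of Ptgds, 35 bases before the start, and Tbxas1, and in 7.81% of all. The NFAT core GGAAAA was found for Ptgs2, Ptgds and Hpgd and in 23.4% of all. The short cAMP response element TGACG was found for Ptgs2 (20.8% of all), with its match overlapping the E-box CACGTG, which Ptges2 also held (7.15% of all). The NF-kB motif (GGGA, any base, TTTCC) was found for none of the 9 (0.411% of all), and TATAAA for Tbxas1, Hpgd and the second start of Pla2g4a (13.6% of all). Motifs were searched on both strands, the matches of Ptgs2 to TGACG and CACGTG, of Ptgds to GGAAAA and of Hpgd to TATAAA lie after the start and outside the bases shown, and a match is a description of the letters only.

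Per kb of merged exon, Tbxas1 and Ptgs1 were the most abundant of the 9 transcripts. After IgE alone Tbxas1 lay at 44.9 ± 1.41 CPM per kb (mean ± SD, n = 4, both genotypes), Ptgs1 at 38.8 ± 11.1, Hpgds at 21.8 ± 2.82, Pla2g4a at 7.69 ± 2.21 and Ptges2 at 2.77 ± 0.313. Ptgs2, Ptges, Hpgd and Ptgds each averaged at most 0.0810 CPM per kb in these samples. Tbxas1 and Ptgs1 overlapped in range after IgE, and the other steps from Ptgs1 down to Ptges2 did not. In the other treatments Ptgs1 led, at 61.7 ± 18.5 CPM per kb with DNP, 108.6 ± 9.44 with DEX and 166.8 ± 37.6 with both. With the longest annotated transcript as the length, Tbxas1 ranked above Ptgs1 after IgE DNP as well.

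**Figure D1:**
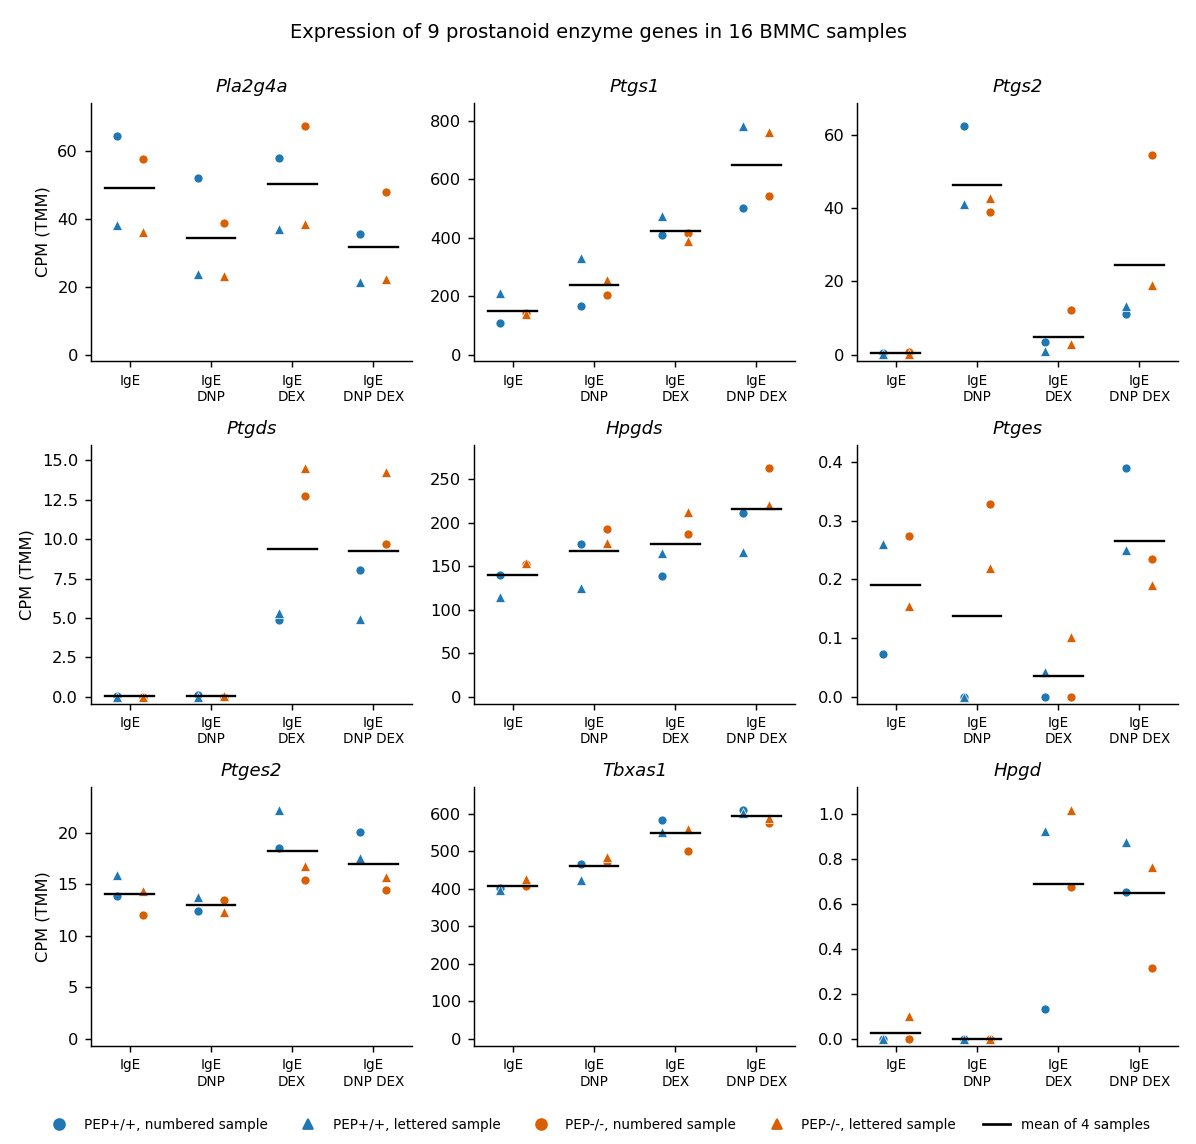
TMM-normalized CPM (linear axes starting at 0) of the 9 genes by treatment in 16 samples, with circles for numbered and triangles for lettered samples, blue for PEP+/+, orange for PEP-/- and a bar for the mean of 4 samples. Ptgs2 is highest after IgE DNP, Ptgs1 climbs to 501 to 785 CPM after IgE DNP DEX, and Ptgds and Hpgd have reads almost only in samples with DEX.

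Pla2g4a, the release step, had its highest levels without DNP. It lay at 64.5 and 38.3 CPM in PEP+/+ and 57.7 and 36.0 CPM in PEP-/- after IgE, and at 52.0 and 23.9 and at 38.6 and 23.1 CPM after IgE DNP (numbered sample first in each pair). After IgE DEX it lay at 57.9 and 37.1 CPM in PEP+/+ and 67.5 and 38.4 CPM in PEP-/-, and after IgE DNP DEX at 35.4 and 21.4 and at 47.8 and 22.2 CPM. The treatments overlapped, since the numbered sample was the higher of the pair in 8 of 8 conditions, by a median of 1.67 times (1.55 to 2.16). Within each set of samples, Pla2g4a was lower with DNP in 4 of 4 pairs without DEX and in 4 of 4 with DEX. By DNP it changed by -0.52 on the log2 scale without DEX (standard error 0.36; adjusted p = 0.43 by edgeR) and by -0.67 under DEX (standard error 0.37; adjusted p = 0.281). With the replicate set as a block in the model, Pla2g4a fell with DNP by 0.54 on the log2 scale (adjusted p = 0.000638, edgeR) without DEX and by 0.69 (adjusted p = 0.000121) under DEX. DEX moved it by 0.03 (95% interval -0.76 to 0.83) in sensitized and -0.12 (-0.92 to 0.68) in activated cells, with adjusted p of 0.985 and 0.907.

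Ptgs2, encoding COX-2, was at 0.514 and 0.0867 CPM in PEP+/+ and 0.728 and 0.154 CPM in PEP-/- after IgE, which was 1 to 8 reads in a library. The size of any fold change against these samples thus rests on few reads. Tests against IgE describe a rise from near the floor of 3 reads, since Ptgs2 passed the filter only through samples with DNP or DEX. After IgE DNP it was at 62.7 and 41.2 CPM in PEP+/+ and 38.9 and 42.8 CPM in PEP-/-, so without DEX every sample with antigen lay far above every sample lacking it. Ptgs2 rose with DNP by 7.01 on the log2 scale (standard error 0.72, 129-fold, adjusted p = 6.12e-05, edgeR), averaged over both genotypes. The value ranged from 6.56 without the PEP-/- IgE replicate 2 to 7.89 without the PEP+/+ IgE replicate 1, and the call held with any 1 library left out. It was the only 1 of the 8 genes tested that was called in this comparison, as were 16.7% of all genes (9.07% higher and 7.58% lower). With the block Ptgs1 and Pla2g4a were called too, against 37.9% of all genes.

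DEX alone also raised Ptgs2 in sensitized cells, again from near the floor in the IgE samples. Its levels were 3.39 and 1.05 CPM in PEP+/+ and 12.3 and 2.95 CPM in PEP-/-, all above the 4 IgE samples. The increase was 3.52 on the log2 scale (11.5-fold, standard error 0.71, adjusted p = 0.00856 by edgeR). It ranged from 2.83 without the PEP-/- IgE DEX replicate 1 to 4.41 without the PEP+/+ IgE replicate 1, with adjusted p of 0.0345 and 0.0231. Levels after IgE DNP DEX were 11.1 and 13.2 CPM in PEP+/+ and 54.6 and 18.9 CPM in PEP-/-. Both PEP+/+ samples thus lay under both IgE DNP samples of that genotype, while the PEP-/- samples lay on either side of theirs. In activated cells Ptgs2 was lower with DEX in 3 of 4 same-set pairs, by -1.12 on the log2 scale (95% interval -2.24 to -0.01, adjusted p = 0.207 by edgeR). The blocked value was -1.16 (standard error 0.29, adjusted p = 0.00625).

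Under DEX, Ptgs2 still rose with DNP, by 2.37 on the log2 scale (standard error 0.54, 5.15-fold, adjusted p = 0.0157, edgeR), where 12.6% of all genes (7.19% higher and 5.42% lower) and 1 of the 8 tested here were called. It lost the call without the PEP+/+ IgE DEX replicate 2 (2.04, adjusted p = 0.0734) and without the PEP-/- IgE DEX replicate 2 (2.03, adjusted p = 0.051), and reached 3.06 without the PEP-/- IgE DEX replicate 1. The rise by DNP was smaller under DEX than without it by 4.65 on the log2 scale (standard error 0.88, 25-fold), which did not pass across all genes (adjusted p = 0.0627, edgeR). This difference combines the rise by DEX in sensitized cells (3.52, from 1 to 8 reads after IgE) with the change by DEX in activated cells (-1.12). It is therefore no measure of how far DEX lowered Ptgs2 in activated cells, and its size rests on few reads. Of all genes 0.331% passed in this comparison and 0 of the 8 did, with 1 of the 8 and 3.65% of all genes at an unadjusted p under 0.05. With the replicate block the difference was -4.63 (standard error 0.63, adjusted p = 0.00113), where 1.57% of all genes passed, and with DESeq2 it was -4.65 (adjusted p = 9.61e-06).

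Ptgs1, encoding COX-1, was expressed in every sample, with its lowest mean after IgE and its highest after IgE DNP DEX. After IgE it lay at 108.6 and 210.9 CPM in PEP+/+ and 143.4 and 139.8 CPM in PEP-/-, and after IgE DEX at 409 and 473 and at 417 and 388 CPM. After IgE DNP it lay at 166.7 and 332 CPM in PEP+/+ and 203.4 and 257 CPM in PEP-/-, and after IgE DNP DEX at 501 and 785 and at 544 and 762 CPM. Samples with DEX lay above those without it, with no overlap in sensitized or in activated cells. Ptgs1 rose with DEX by 1.49 on the log2 scale in sensitized cells (2.80-fold, standard error 0.27, adjusted p = 0.00452 by edgeR). In activated cells it rose by 1.44 (2.71-fold, standard error 0.27, adjusted p = 0.00554). With DNP it was higher in 4 of 4 same-set pairs without DEX (0.67, standard error 0.26, adjusted p = 0.118) and in 4 of 4 under DEX (0.62, standard error 0.26, adjusted p = 0.157). The former was called without the PEP+/+ IgE DNP replicate 1 (0.87, adjusted p = 0.0452) or the PEP+/+ IgE replicate 2 (0.95, adjusted p = 0.0453). In the blocked fit both were called, at 0.66 (adjusted p = 0.00584) and 0.58 (adjusted p = 0.0127), and under DEX 3 of the 8 genes and 37.6% of all genes were, Pla2g4a and Ptgs2 among them.

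The makeup of the cyclooxygenase pair therefore differed between treatments. Ptgs2 made up 0.0349% to 0.429% of the summed CPM per kb of Ptgs1 and Ptgs2 after IgE, 9.52% to 24.2% with DNP, 0.188% to 2.44% with DEX and 1.41% to 7.84% with both (4 samples each). Every IgE DNP sample lay above every other sample in this share. The summed level of the pair was 28.1 to 54.3 CPM per kb after IgE, 56.6 to 94.5 with DNP, 100.4 to 122.1 with DEX and 131.4 to 204.9 with both, with no overlap between treatments.

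**Figure D2:**
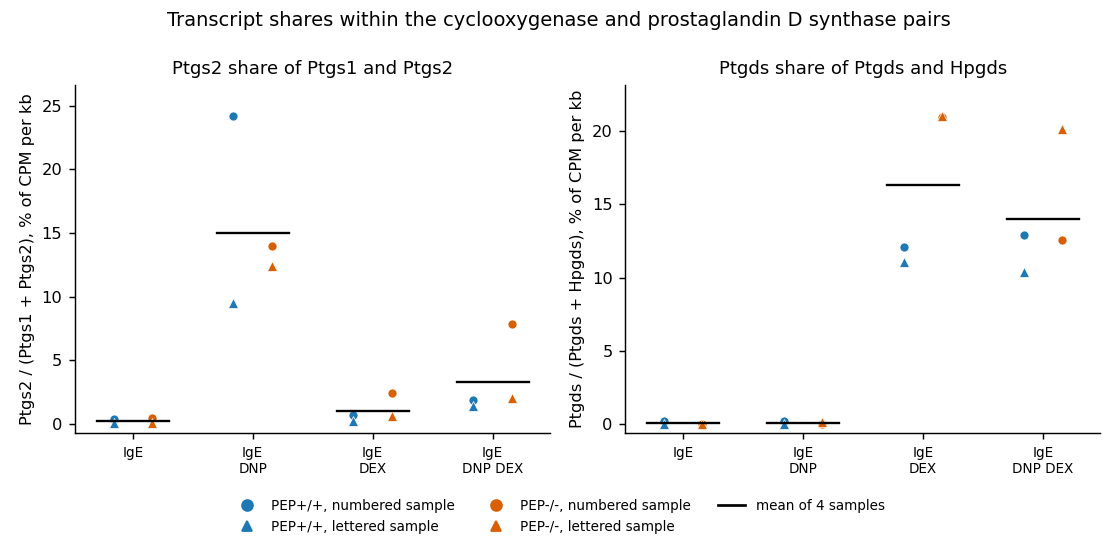
Share of Ptgs2 in the summed level of Ptgs1 and Ptgs2 (left) and of Ptgds in that of Ptgds and Hpgds (right), in percent of CPM per kb, for each of 16 samples by treatment, with symbols for genotype and replicate set and a bar for the mean of 4 samples. The Ptgs2 share reaches 24.2% after IgE DNP and at most 7.84% after IgE DNP DEX, and the Ptgds share is at least 10.4% with DEX and at most 0.209% without.

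Ptgds, the lipocalin-type prostaglandin D synthase, had 0 or 1 read in each of the 8 samples without DEX. After IgE DEX it had 75 and 126 reads in PEP+/+ (4.89 and 5.30 CPM) and 246 and 143 reads in PEP-/- (12.8 and 14.5 CPM). After IgE DNP DEX it had 62 and 79 reads (8.07 and 4.94 CPM) and 124 and 150 reads (9.70 and 14.3 CPM). Over the 4 samples of each treatment, 590 reads after IgE DEX against 1 after IgE gave a ratio of 480 (95% exact counting interval 85.9 to 19010). For IgE DNP DEX against IgE DNP, 415 reads against 2 gave a ratio of 220 (60.5 to 1823), and these intervals cover counting error only. No test by DEX is given for it, since it was tested only through its samples with DEX. In the presence of DEX, DNP moved Ptgds by 0.08 on the log2 scale (95% interval -0.62 to 0.78, adjusted p = 0.953, edgeR).

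Hpgds, the hematopoietic prostaglandin D synthase, was at 114.6 to 154 CPM after IgE, 125.3 to 193 with DNP, 139 to 213 with DEX and 166 to 264 with both. The ranges of each pair of treatments compared overlapped. By DEX it changed by 0.32 on the log2 scale in sensitized cells (standard error 0.15, adjusted p = 0.264 by edgeR). In activated cells the change was 0.36 (standard error 0.15, adjusted p = 0.167, and 0.0321 with the block). By DNP it was 0.26 (adjusted p = 0.31) without DEX and 0.29 (adjusted p = 0.241) under DEX, higher in 4 of 4 same-set pairs each time. Ptgds made up at most 0.209% of the summed CPM per kb of both D synthases in the samples without DEX, 11.1% to 21.04% with DEX alone and 10.4% to 20.1% with both agents, so Hpgds remained the more abundant transcript in 16 of 16 samples.

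Of the 2 prostaglandin E synthase genes among the 9, Ptges2 was the measurable one. Ptges3, a further prostaglandin E synthase gene outside the 9, averaged 62.2 CPM after IgE, 83.1 with DNP, 53.2 with DEX and 72.5 with both. Ptges2 lay at 12.0 to 15.9 CPM after IgE, 12.3 to 13.7 with DNP, 15.4 to 22.2 with DEX and 14.5 to 20.1 with both. It was higher with DEX in 4 of 4 same-set pairs in sensitized and in activated cells, by 0.37 on the log2 scale each time (standard error 0.14, adjusted p of 0.136 and 0.115 by edgeR). In the blocked fit it rose in both, with adjusted p of 0.0239 and 0.0231. Ptges, the inducible microsomal synthase, had 0 to 4 reads in a library and 32 in all 16, with 3 or fewer in 13 libraries and 0 in 4. It was not tested, and 3 reads in a library corresponded to 0.126 to 0.391 CPM, under which a level could not be told from 0.

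Tbxas1, thromboxane A synthase, lay at 397 to 426 CPM after IgE, 424 to 484 with DNP, 502 to 584 with DEX and 576 to 611 with both. Samples with DEX lay above those without in sensitized and in activated cells. Tbxas1 rose with DEX by 0.43 on the log2 scale in sensitized cells (1.35-fold, standard error 0.10, adjusted p = 0.0233 by edgeR). In activated cells it rose by 0.37 (1.29-fold, standard error 0.10, adjusted p = 0.0444). Leaving out any single library but the PEP-/- IgE DEX replicate 1 ended the call in sensitized cells (adjusted p 0.0568 to 0.097), and leaving out any ended it in activated cells (0.0547 to 0.124). With the replicate block both calls held, at 0.00155 and 0.00425. With DNP it changed by 0.18 (95% interval -0.05 to 0.40) without DEX and 0.11 (-0.11 to 0.34) under DEX, neither passing the test.

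Hpgd, the inactivating dehydrogenase, had 0 reads in 7 of the 8 samples without DEX and 2 in the PEP-/- IgE replicate 2. After IgE DEX it had 2 and 22 reads in PEP+/+ and 13 and 10 reads in PEP-/-, and after IgE DNP DEX 5 and 14 and then 4 and 8 reads. Samples with DEX lay at 0.130 to 1.02 CPM, and the lowest of them, PEP+/+ IgE DEX replicate 1, had the same 2 reads as the highest sample without DEX, under the floor of 3 reads. The ratio was 19.1 (95% exact counting interval 5.01 to 163) for 47 reads after IgE DEX against 2 after IgE, and Hpgd was at least 10.96-fold higher after IgE DNP DEX (31 reads) than after IgE DNP (0 reads, set to 3 over the 4 samples). The interval and the bound leave out the spread between samples. As for Ptgds, no test by DEX is given.

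By branch, counts of calls are given for the 6 genes with reads in every library, since Ptgds and Hpgd were tested only through their samples with DEX. Ptgs2 is among the 6, though its IgE samples held 1 to 8 reads and it passed the filter through its samples with DNP or DEX. Its calls against IgE describe a rise from near the floor of 3 reads. DEX in sensitized cells raised both cyclooxygenase genes and 1 of the 3 terminal synthase genes among the 6 (Tbxas1), and the release gene did not pass. These 3 of 6 genes stand beside 9.37% of all genes called in either direction (5.4% higher and 3.98% lower). In activated cells DEX raised Ptgs1 and Tbxas1, 2 of 6 beside 10.7% of all genes (5.67% higher and 4.99% lower). With the replicate block 4 of 6 were called in sensitized cells, Ptges2 being the added gene, where 26.7% of all genes were. In activated cells 5 of 6 were, Ptgs2 as lower and Hpgds and Ptges2 as higher, where 33.3% of all genes were. Over the 6 genes with reads in every library, the median log2 fold change was 0.40 by DEX in sensitized cells (0.00 over all genes), 0.36 by DEX in activated cells (-0.01), 0.22 by DNP without DEX (0.00) and 0.20 by DNP under DEX (-0.03). The comparisons share samples, the IgE DNP DEX group in the DEX and the DNP comparison among them. Within a genotype, with 2 samples against 2, 3 combinations of these 6 genes with a response were called, DNP without DEX on Ptgs2 in both genotypes and DEX on Ptgs2 in sensitized PEP-/- cells. In the blocked fit 18 were. Without the block, the share of all genes called in PEP+/+ cells was 5.9% by DNP without DEX, 3.18% by DEX in sensitized cells, 3.03% by DEX in activated cells and 3.84% by DNP under DEX. In PEP-/- cells it was 7.22%, 3.34%, 3.28% and 3.98%, in that order. With it, these shares were 21.1%, 15.6%, 18.9% and 22.3% in PEP+/+ and 26.2%, 14.7%, 18.1% and 19.7% in PEP-/- cells. In sensitized PEP-/- cells the call of Ptgs2 was lost without either IgE replicate (adjusted p = 0.114 without replicate 1 and 0.322 without replicate 2) or without the IgE DEX replicate 1 (0.303).

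**Figure D3:**
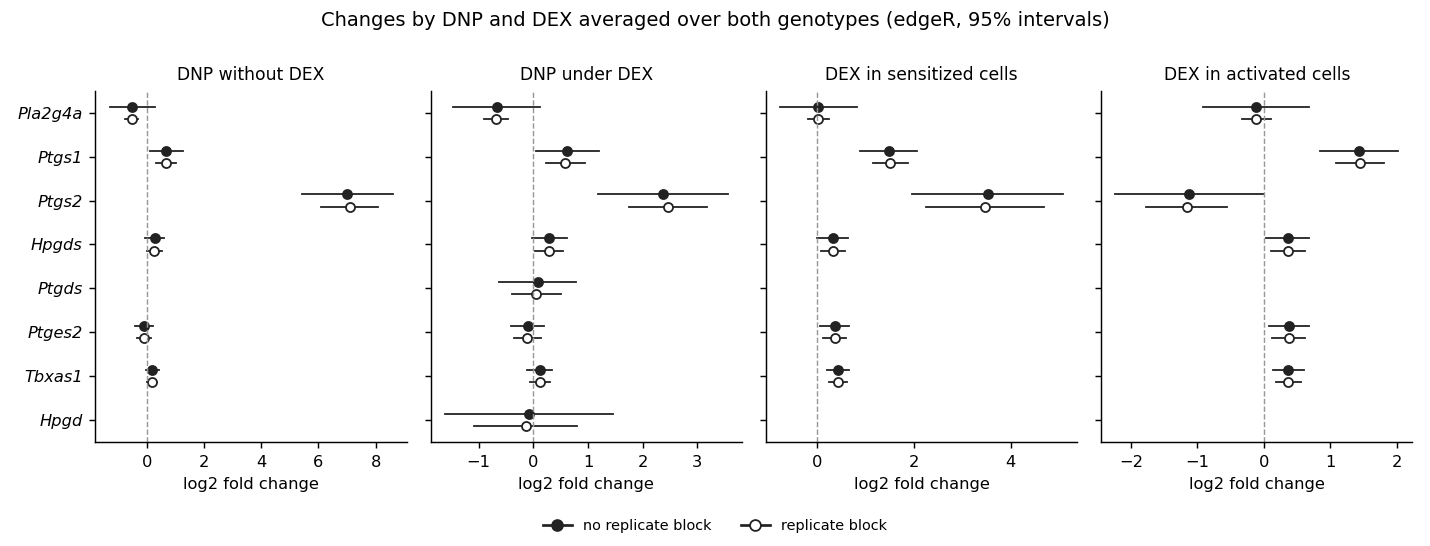
Log2 fold changes (points) with 95% intervals (lines) from edgeR by DNP and by DEX, averaged over both genotypes, without (filled) and with (open) the replicate block, each panel with its own axis. Ptgds and Hpgd are shown only for DNP under DEX, since they had at most 2 reads in a library without DEX, and Ptgs2 is far right under DNP without DEX and left of 0 under DEX in activated cells.

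For PEP-/- against PEP+/+ averaged over the 4 treatments, 0 of the 8 genes passed (edgeR), where 1.59% of all genes did, and 2 had an unadjusted p under 0.05, Hpgds and Ptges2, where 14.2% of all genes did. Hpgds was at 139.6 and 114.6 CPM in PEP+/+ and 152.2 and 154 CPM in PEP-/- after IgE, and PEP-/- was the higher in 8 of 8 same-set pairs over the treatments. The log2 difference was 0.33 (standard error 0.11, 1.26-fold, adjusted p = 0.161, edgeR), with adjusted p of 0.0147 with the replicate block and 0.0499 with DESeq2. In the blocked fit 17.4% of all genes were called. Ptges2 went the other way, with a log2 difference of -0.21 (standard error 0.10, adjusted p = 0.353) and PEP-/- the lower in 7 of 8 pairs. Ptgs2 was higher in PEP-/- in 7 of 8 pairs, by 0.85 (95% interval -0.16 to 1.85, adjusted p = 0.464). The IgE pairs among them held 1 to 8 reads in a library, and after IgE DNP the difference was -0.35 (standard error 0.71). Ptgs1 and Tbxas1 differed between genotypes by -0.10 (95% interval -0.51 to 0.31) and 0.00 (-0.16 to 0.16) on the log2 scale.

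Within a treatment, 0 of the 8 genes passed in any of the 4 genotype comparisons (edgeR), where 0.00752% of all genes, 1 gene, did in each, and 2 had an unadjusted p under 0.05 after IgE DEX (2.89% of all genes), Ptgds and Ptgs2, and 0 in the other treatments. Ptgds was higher in PEP-/- than in PEP+/+ in the 4 same-set pairs with DEX, with log2 differences of 1.42 (standard error 0.45, adjusted p = 1) with DEX alone and 0.89 (standard error 0.45, adjusted p = 1.00) with both agents. The former had an adjusted p of 0.0491 with the replicate block. Ptgs2 was 1.84 (standard error 0.78) higher in PEP-/- with DEX alone and 1.59 (standard error 0.73) higher with both. The genotype effect on a response to DNP or DEX did not pass for any of the 8 genes, nor for any other gene (0% called, edgeR), and 0 of the 8 had an unadjusted p under 0.05 there. For the change of Ptgs2 by DEX in activated cells it was 1.94 (95% interval -0.28 to 4.17). Averaged over the 2 treatments with DEX, a comparison added after the values of Ptgds were seen, the genotype difference was 1.16 for Ptgds (standard error 0.32, adjusted p = 0.545) and 1.72 for Ptgs2 (standard error 0.53, adjusted p = 0.618), where 0.00752% of all genes were called. In the blocked fit these were 1.17 (adjusted p = 0.0115) and 1.60 (adjusted p = 0.0226), where 3.08% of all genes were.

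**Figure D4:**
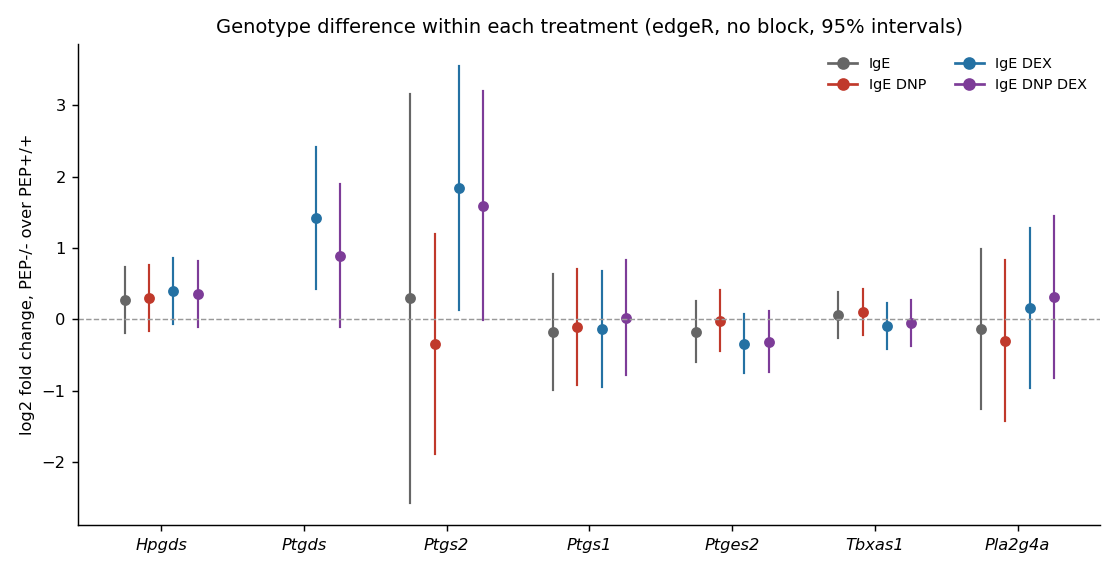
Log2 difference of PEP-/- over PEP+/+ (points) with 95% intervals (lines) from edgeR without the block in each treatment, 2 samples against 2. Hpgds lies above 0 in 4 of 4 treatments at 0.27 to 0.39, the DEX values of Ptgds and Ptgs2 lie between 0.89 and 1.84, and Ptgds is not shown without DEX, where it had at most 1 read in a library.

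The numbered and lettered samples differed by set for part of the genes. Pla2g4a was higher in the numbered sample in 8 of 8 conditions, as given above, and Ptgs1 was higher in the lettered sample in 6 of 8 (median 1.33 times). Hpgds, Ptges2 and Tbxas1 were higher in the numbered sample in 5, 2 and 4 of 8 conditions. Within each set, the change of mean log2 CPM by DEX in sensitized cells was 1.72 (numbered) and 1.32 (lettered) for Ptgs1 and 0.42 and 0.44 for Tbxas1. The change by DNP without DEX was 6.03 and 7.32 for Ptgs2, and by DEX in activated cells it was -0.9996 and -1.40.

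**Figure D5:**
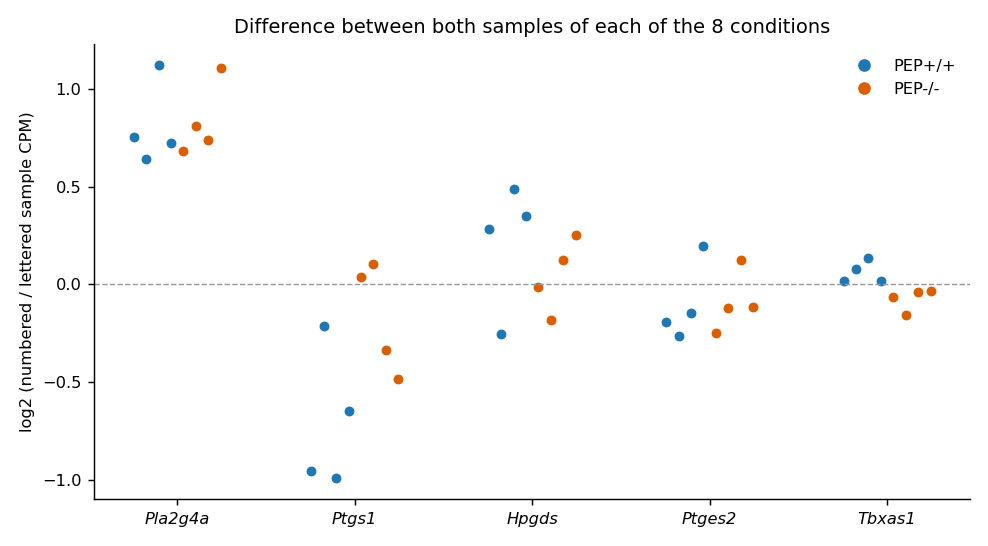
Log2 ratio of the numbered over the lettered sample (CPM) in each of the 8 conditions for the 5 genes with at least 10 reads in every sample, blue for PEP+/+ and orange for PEP-/-. All 8 points of Pla2g4a lie above 0, and 6 of 8 points of Ptgs1 lie below it.

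Other genes of the pathway were taken from 4 lists. Of 31 genes that release or re-esterify arachidonic acid, 23 were tested, and DNP without DEX raised 3 and lowered 1, 4 of 23 where 16.7% of all genes were called. Faah, which breaks down fatty acid amides such as anandamide, rose from 8.33 to 24.4 CPM (log2 fold change 1.55, adjusted p = 0.000698, edgeR), Acsl4, an acyl-CoA synthetase that prefers arachidonic acid, rose from 136 to 313 CPM (1.2013, adjusted p = 0.0396), and Daglb, a diacylglycerol lipase, fell from 15.2 to 9.29 CPM (-0.70, adjusted p = 0.0116). DEX in sensitized cells raised 1 of the 23, Pnpla2, the triglyceride lipase ATGL (0.48), and lowered 3 (9.37% of all genes were called), with the largest decreases in the lysophospholipid acyltransferases Mboat1 (-1.28) and Lpcat2 (-1.07). DEX in activated cells lowered 5 of the 23 and raised 0 (10.7% of all genes were called), led by Faah (24.4 to 6.92 CPM, -1.81, adjusted p = 0.000468) and Mboat1 (29.2 to 9.197 CPM, -1.69, adjusted p = 0.0019). DNP under DEX raised Mboat7 (0.45) and lowered Pnpla2 (-0.47), 2 of 23 where 12.6% of all genes were called. The list's median log2 fold change was -0.28 by DEX in sensitized and -0.33 in activated cells, against 0.00 and -0.01 over all genes, and 0.05 by DNP without and 0.03 by DNP under DEX.

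Of 10 prostanoid receptor genes 4 were tested. Of the 4, 1 was called by DNP without DEX (16.7% of all genes) and 1 by DNP under DEX (12.6%). DEX raised 1 and lowered 1 in sensitized cells (9.37% of all genes called) and raised 2 in activated cells (10.7%). Ptgir, the prostacyclin receptor, rose with DNP from 8.44 to 24.0 CPM without DEX (1.51, adjusted p = 0.0304, edgeR) and from 2.06 to 9.82 CPM under DEX (2.25, adjusted p = 0.00733), and fell with DEX in sensitized cells (-2.04, adjusted p = 0.0138). Ptger3, encoding the prostaglandin E2 receptor EP3, rose with DEX from 76.5 to 136 CPM in sensitized (0.82, adjusted p = 0.0202) and from 62.4 to 110.4 CPM in activated cells (0.81, adjusted p = 0.0211), where the EP4 receptor gene Ptger4 rose too (0.51). The list's median was -0.32 by DNP without DEX, 0.24 and 0.38 by DEX in sensitized and activated cells, and -0.20 by DNP under DEX. Of the receptors for prostaglandin D2, Ptgdr had 0 reads in 16 of 16 libraries and Ptgdr2 at most 1 read. Of 8 other terminal synthases and reductases tested out of 10, 1 was called, Gpx1 (glutathione peroxidase), higher with DNP under DEX (0.93). Of 5 transport and inactivation genes tested out of 6, 1 was called, the prostaglandin reductase gene Ptgr2, lower with DNP under DEX (-0.49). In that comparison 12.6% of all genes were called, so neither count stands out from all genes. The medians of these lists by DNP under DEX were 0.50 and 0.09. In the genotype average 0 genes of the 4 lists were called, where 1.59% of all genes were.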

How the data were processed

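RNA from 16 BMMC samples was sequenced as paired reads from a stranded mRNA kit. TopHat2 alignments to GRCm38 were counted with HTSeq, and the authors deposited the raw counts per gene, without normalization, for 39179 Ensembl genes in each sample. The strand setting is not given in the sources used here. A further 5 rows that name no gene held 29.05% to 49.62% of all counts of a sample and were left out. All counts here start from those deposited counts. Symbols, positions and exon lengths came from GENCODE M21 (37607 identifiers found, 95.99%). No exon of the 9 genes overlapped another gene in the count files, and Ptgs1 and Tbxas1 overlap opposite-strand genes outside them by 148 and 144 bases. Samples were grouped by the labels' genotype and treatment.

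Counts were TMM-normalized and tested with edgeR 4.0.16 (glmQLFit, glmQLFTest) in R 4.3.3 in 1 fit of all 16 samples with a mean for each of 8 conditions, after filterByExpr with its minimum count of 10. A change was called at a Benjamini-Hochberg adjusted p under 0.05 over all 13305 genes. CPM used TMM library sizes. Counting intervals are exact at 95%, and the floor for a count of 0 is 3 counts. In simulated data, 14% of genes changed by 1 and 91% of genes changed by 2 on the log2 scale were recovered for DNP without DEX, 74.5% and 98.5% for the genotype average, 0% and 76% for the interaction of DNP and DEX, and 1.5% and 66% for DNP without DEX in PEP+/+. The simulation gave every gene the same spread (biological coefficient of variation 0.312) and no difference between replicate sets. These rates therefore do not carry over to single genes or to the blocked fit. Alternatives were DESeq2 1.42.0, its size factors in edgeR, no filter, a minimum of 10 counts in each sample, a fit of only the compared conditions, each sample left out, an additive genotype design, the longest transcript as length, and a replicate block. The block pairs the numbered and the lettered samples: in 28 of 28 pairs of conditions, same-set samples deviated together (correlation over genes 0.4529 to 0.7986, limit 0.1), although the labels do not say what a set shares. The main fit leaves this pairing out, so its spread includes the difference between the sets. Blocked values stand beside results whose call they change.

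The 9 genes, the lists and the tests were chosen with earlier results of these data known. Named genes outside the 9 are up to 2 with the largest increase and 2 with the largest decrease among those called per list and comparison, and the 3 with the condition means (log2 CPM, prior count of 2) most correlated to each of 4 called members. Ptpn22, Tsc22d3, Tnf and the cell type markers are checks. Mboat7, Ptges3, Ptgdr and Ptgdr2 where named beyond this rule were chosen after their values were seen.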

Additional observations from a re-analysis of the deposited data

Results flagged for a closer look

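The response of Ptgs2 to DNP differed between cells with and without DEX when the replicate sets were modelled as a block. The difference was -4.63 on the log2 scale (standard error 0.63, adjusted p = 0.00113, edgeR), and -4.65 (adjusted p = 0.0627) without the block. Ptgs2 was higher with DNP in 4 of 4 same-set pairs under either condition. Without the block, DEX changed it by 3.52 in sensitized cells, from 1 to 8 reads after IgE, and by -1.12 in activated cells. The size of the difference thus rests on few reads.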

How the results depend on the processing

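No change of a member that was called reversed under any alternative. In the comparisons averaged over genotypes, the number of the 8 members called by DNP without DEX was 1, and 3 with the replicate block, 2 with no filter, 0 with at least 10 counts in every sample and 1 to 2 with each sample left out. By DEX in sensitized cells it was 5, and 2 with at least 10 counts in every sample, 3 with only the conditions compared and 3 to 4 with each sample left out. By DEX in activated cells it was 4, and 7 with the block, 2 with at least 10 counts, 2 with only the conditions compared and 2 to 3 with each sample left out. By DNP under DEX it was 1, and 3 with the block, 3 with no filter, 0 with at least 10 counts and 0 to 1 with each sample left out. The interaction of DNP and DEX went from 0 to 1 with the block, no filter or DESeq2, and the genotype average from 0 to 1 with each of these and to 2 over the DEX treatments alone with the block. Genotype comparisons within a treatment went from 0 to 1 with the block and 2 with no filter. Among all genes, each of these called 1 gene, 3 to 248 with the block and 21 to 40 with no filter. Treatments within a genotype went from 7 pairs of gene and response to 26 with the block, 18 with no filter, 17 with DESeq2 and 0 with at least 10 counts. Among all genes, these comparisons called 403 to 960 each, and 1955 to 3480 with the block. The ranges were 746 to 1154 with no filter, 804 to 1473 with DESeq2 and 344 to 922 with at least 10 counts. The filter of at least 10 counts removes Ptgs2, Ptgds and Hpgd by construction, and the cause of the other changes was not tested. The replicate block ended no call, and by DEX in sensitized cells it added the call of Ptges2. Counts by DEX include Ptgds and Hpgd, which were tested only through their samples with DEX and are no support. Ptgs2, counted by DNP and by DEX, passed the filter through its samples with either agent. Ptges was too shallow to test, and Ptgds and Hpgd had at most 2 reads in a library without DEX. A lone sample left in a condition is assumed to vary like the others. Among all genes, the counts called by DNP without DEX, DEX in sensitized cells, DEX in activated cells, DNP under DEX, the interaction and the genotype average were 2216, 1247, 1418, 1678, 44 and 212, and 5042, 3548, 4429, 5007, 209 and 2310 with the replicate block. The last 2 were 101 and 707 with DESeq2 and 107 and 472 with no filter. With only the conditions compared, DEX in sensitized cells, DEX in activated cells and DNP under DEX gave 976, 805 and 953. The additive design gave 596 for genotype. With no filter, DNP without DEX gave 2314 and DNP under DEX 1880. With at least 10 counts, DNP without and under DEX gave 2012 and 1612, and DEX in sensitized and activated cells 1024 and 1220.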

Other observations

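For Ptgds, Ptgs2, Ptgs1 and Hpgd, the tested genes most like them over the 8 condition means of log2 CPM were named, as a description with no test, since conditions share their treatments. Ptgds was closest to Ahsg, encoding fetuin-A (Pearson r = 0.998), Zbtb16, encoding the transcription factor PLZF (0.997), and Gm20658 (0.997). Like Ptgds, Ahsg and Zbtb16 were at 0 CPM in their lowest sample, and they reached 15.4 and 8.40 CPM in their highest. Ptgs2 was closest to Malt1, a paracaspase of NF-kB signalling (0.992), the kinase gene Jak2 (0.988) and Gimap6 (0.984), all expressed at 48.3 CPM or more in every sample. Ptgs1 was closest to Plxdc2 (0.991), Gm16897 (0.989) and Calca, the calcitonin gene (0.984, 111.4 to 1421 CPM), and Hpgd to Nt5c2 (0.988), Kcnq1 (0.987) and Gimap9 (0.986).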
